A study of Homo sapiens with 6 samples.

Results

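The 9 genes described here encode the interleukin-6 (IL-6) and leukaemia inhibitory factor (LIF) family of cytokine signalling: the ligands IL6, LIF and IL11, the receptor chains IL6ST, IL6R, LIFR and OSMR, the transcription factor STAT3 and its inhibitor SOCS3. They were chosen by name, and all 9 were found among the 23002 genes of the deposited table. Messenger RNA was sequenced from U251, an established human glioblastoma cell line grown in culture. The control group (sh-NC, 3 samples) carried a lentivirus with a non-targeting short hairpin RNA, and the other group (sh-TRAF2, 3 samples) a lentivirus against TRAF2, an adaptor protein of tumour necrosis factor receptors. Both were stable lines selected with puromycin in medium with fetal bovine serum, so every sample carries an integrated hairpin vector. The comparison asks which transcripts differ once TRAF2 is lowered without any added cytokine in the labels. Which hairpin against TRAF2 was sequenced, and whether a line was a clone or a pool, is not given in the sources used here. The labels do not say that the samples came from separate cultures, and p-values measure only the spread between these samples.

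Cytokines of this family signal through a shared receptor chain, gp130, which IL6ST encodes. IL-6 and IL-11 first bind their own non-signalling chains, encoded by IL6R and IL11RA, and then join gp130, whereas LIF pairs gp130 with the chain encoded by LIFR and oncostatin M pairs it with that of OSMR or LIFR. The chains carry Janus kinases that phosphorylate STAT3, and STAT3 in turn switches on SOCS3, which binds gp130 and shuts the signal down. In glioblastoma this axis is known for ties to the mesenchymal state and to glioma cell self-renewal. IL6, LIF and IL11 are also classical targets of NF-kappaB and AP-1, the transcription factors that act downstream of TRAF2.

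Levels are given in FPKM, fragments per kilobase of transcript scaled to sequencing depth, so that genes can be set side by side per unit length. Comparisons between genes depend on the lengths used, whose annotation is not given. The length behind the FPKM was 3089 bases for IL6 and 5139 for STAT3, against 2069 and 8812 exonic bases in GENCODE release 29. For the other members the 2 lengths lay closer together. TRAF2 itself went from 16.3 ± 1.84 (SD, n = 3) FPKM in sh-NC to 3.27 ± 0.054 (SD, n = 3) in sh-TRAF2. The reads behind the values came to between 33999558 and 36823562 per sample, and each member rested on 415 to 38332 reads in every sample. Of 7 glioma and astroglial markers 6 were tested and 4 rose, where 23.7% of all tested genes rose. They were VIM (log2 fold change 0.35), NES (1.12), SLC1A3 (0.47) and GFAP (1.11). The others, CD44 and SOX2, did not pass the test. CD44 lay between 177 and 192 FPKM and SOX2 between 24.1 and 28.7, while the astroglial marker GFAP lay between 0.334 and 1.62 FPKM and S100B at or near 0. Of 11 markers of other cell types, 10 were in the table and 8 lay under the limit for testing. The leukocyte marker PTPRC reached 0.00447 FPKM at most and the endothelial marker PECAM1 0.00781, while CD68 (14.9 to 17.6 FPKM) and KDR (3.24 to 4.25 FPKM) were detected in all samples, and KDR rose by 0.22 on the log2 scale (adjusted p = 0.0495 from limma). The part of these markers in the results was not tested. In bulk RNA, a change in the share of cells that express a gene and a change in RNA per cell cannot be told apart.

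After TRAF2 knockdown LIFR, IL6, STAT3 and OSMR rose and SOCS3 fell, all by less than 2-fold. IL6ST, IL6R, LIF and IL11 did not pass the test, which was limma on log2(FPKM + 0.1) with Benjamini-Hochberg adjustment over 11870 genes whose mean reached 0.5 FPKM, called at an adjusted p under 0.05. All 9 members were tested, and 5 were called (55.6%), against 44.6% of all tested genes, so the family stands near the background in its share of calls. Higher calls made up 4 of 9 members against 23.7% of all tested genes, and lower calls 1 of 9 against 20.9%. None of the members also had an absolute log2 fold change above 1, which 1.72% of tested genes had. The groups did not overlap in 6 of 9 members (66.7%), against 55.5% of tested genes. The median log2 fold change was 0.18 for the members and 0.02 for all tested genes.

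**Figure D1:**
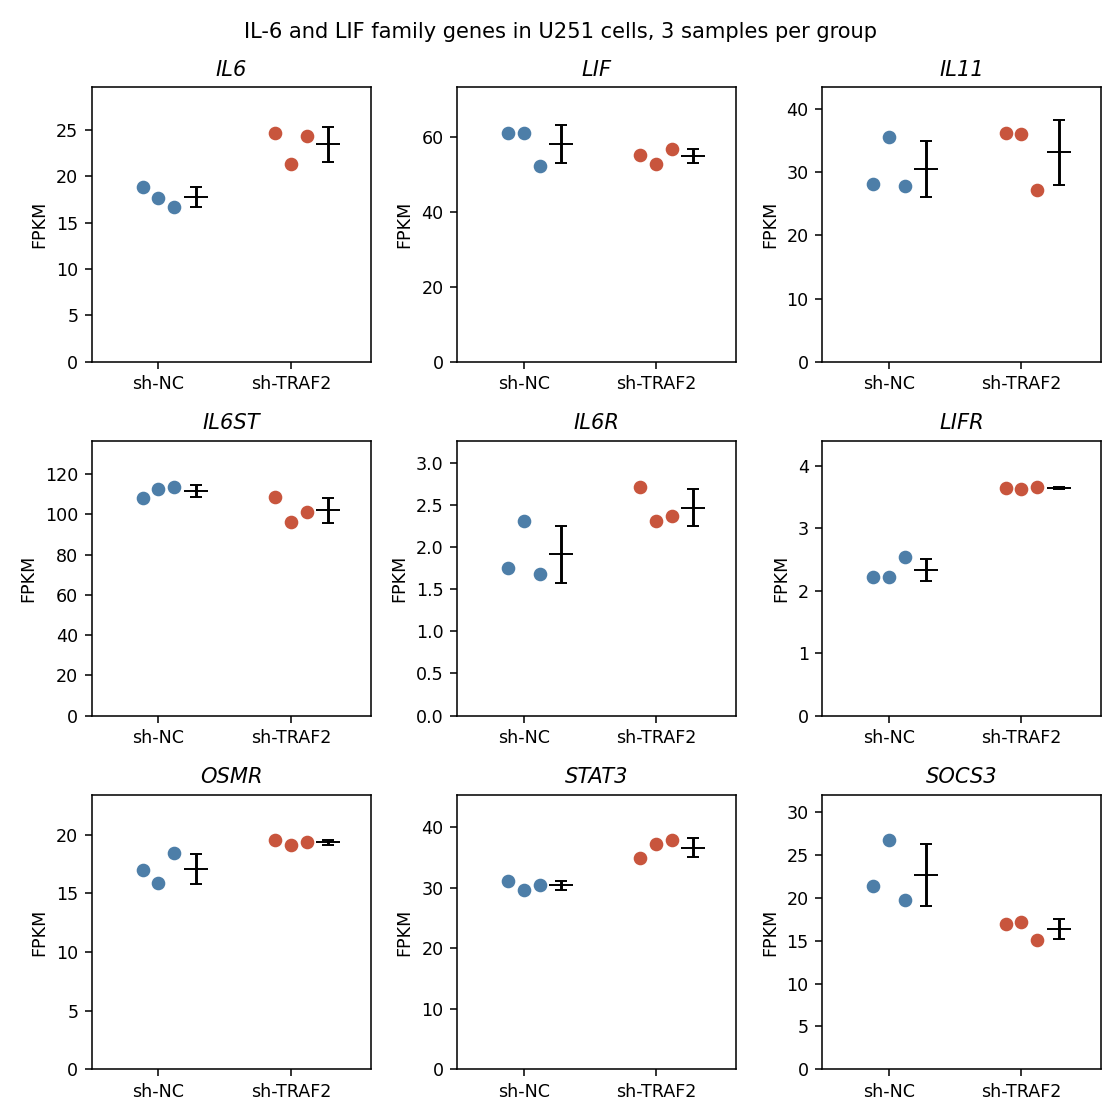
FPKM (linear axes from 0) of the 9 members in each of 3 sh-NC (blue) and 3 sh-TRAF2 (red) samples, with the mean and SD as black bars. LIFR, IL6, STAT3, OSMR and IL6R are higher in every sh-TRAF2 sample than in any sh-NC sample, SOCS3 is lower in every one, and LIF, IL11 and IL6ST overlap.

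Ordered by mean level in sh-NC, IL6ST stood first with 111 FPKM, followed by LIF with 58.1, IL11 with 30.5, STAT3 with 30.4, SOCS3 with 22.6, IL6 with 17.8, OSMR with 17.1, LIFR with 2.33 and IL6R with 1.91 FPKM. The samples of IL11 and STAT3, of IL6 and OSMR, and of LIFR and IL6R overlapped in sh-NC, so the order within these pairs is not fixed. In either group the places of IL6 and STAT3 also depend on the lengths used. For these members the lengths behind the FPKM lay farthest from the exonic bases in GENCODE. In sh-TRAF2 the order was IL6ST, LIF, STAT3, IL11, IL6, OSMR, SOCS3, LIFR and IL6R, and only STAT3 and IL11 overlapped among neighbours. SOCS3, which lay above IL6 and OSMR in every sh-NC sample, lay below both in every sh-TRAF2 sample. That SOCS3 lay above IL6 in sh-NC depends on the length used for IL6. IL6ST ranked 522nd of the 23002 genes by mean FPKM in sh-NC and 600th in sh-TRAF2.

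Among the ligands, IL6 rose. IL6 encodes the cytokine that names the family, and its gene spans chr7:22725884-22732002 (plus strand; GENCODE release 29, GRCh38, as for the other positions). Its FPKM was 18.9, 17.7 and 16.7 in the sh-NC samples and 24.7, 21.3 and 24.3 in the sh-TRAF2 samples. Every sh-TRAF2 sample lay above every sh-NC sample. The log2 fold change was 0.40 (standard error 0.069, 95% interval 0.24 to 0.55, adjusted p = 0.0022 from limma), a 1.31-fold difference. A two-sided exact permutation test over samples gave p = 0.1, which groups of 3 cannot go below, and so it did for every member whose groups did not overlap. An antisense gene absent from the table, AC073072.1, covers 20.7% of the exonic bases of IL6 in GENCODE release 29. Neither the annotation nor the use of strand in counting is given in the sources used here. Reads from AC073072.1 could thus have been counted with IL6 or left out.

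LIF, which sustains stem cell self-renewal, was the most abundant ligand. It spans chr22:30240447-30246851 (minus strand). Its FPKM was 61.0, 60.9 and 52.3 in sh-NC and 55.1, 52.8 and 56.6 in sh-TRAF2. The groups overlapped, since sh-NC replicate 3 lay below all sh-TRAF2 samples. With a log2 fold change of -0.08 (95% interval -0.22 to 0.07, adjusted p = 0.339 from limma), the interval spans folds from 0.857 to 1.05. Without sh-NC replicate 3 it was -0.15 with an adjusted p of 0.0304 from limma.

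IL11 encodes a cytokine best known from fibrosis and from platelet formation. It spans chr19:55364389-55370463 (minus strand). Its FPKM was 28.1, 35.6 and 27.9 in sh-NC and 36.2, 36.1 and 27.2 in sh-TRAF2. Samples near 28 and near 36 occurred in both groups, and the spread within a group exceeded the difference between them. Its log2 fold change was 0.12 (95% interval -0.18 to 0.41, adjusted p = 0.494 from limma).

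The other ligands of the family lay far lower, apart from CLCF1, a cardiotrophin-like cytokine that signals through the CNTF receptor. CLCF1 had 11.5, 13.5 and 10.4 FPKM in sh-NC and 8.76, 10.4 and 10.1 in sh-TRAF2 and did not pass the test (log2 fold change -0.26, adjusted p = 0.0642 from limma). The call depends on single controls, at -0.35 (adjusted p = 0.0252 from limma) without sh-NC replicate 3 and at -0.16 (adjusted p = 0.17 from limma) without sh-NC replicate 2. EBI3, a subunit shared by IL-27 and IL-35, lay between 0.763 and 1.34 FPKM (log2 fold change -0.03, adjusted p = 0.912 from limma). OSM, the ligand of the OSMR chain, had 1 read in each sh-NC sample and 0 in each sh-TRAF2 sample, where 3 reads would be worth at most 0.0331 FPKM. CNTF and IL27 were detected in sh-TRAF2 replicate 2 alone and were listed at 0 FPKM in the other samples. With reads in 1 sample only, the number of reads behind these values cannot be known.

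**Figure D2:**
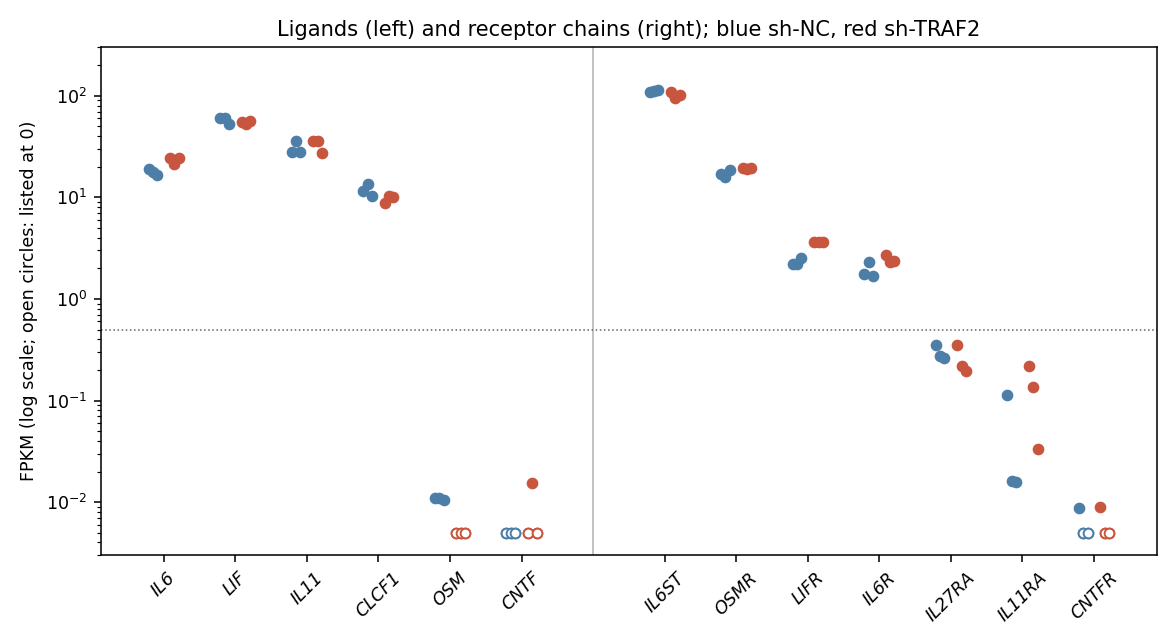
FPKM on a log axis of family ligands (left) and receptor chains (right) in 3 sh-NC (blue) and 3 sh-TRAF2 (red) samples, with open circles at the foot for values listed at 0 and a dotted line at the testing limit of 0.5 FPKM. IL6ST stands near 100 FPKM in both groups, the chains that pair with it for IL-6 and LIF lie between 1.68 and 3.66, and IL11RA, CNTFR, OSM and CNTF lie far under the limit.

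Of the receptor chains, LIFR changed most of all members. LIFR binds LIF and passes its signal on together with gp130, and its gene spans chr5:38474963-38608354 (minus strand). Its FPKM was 2.22, 2.22 and 2.53 in sh-NC and 3.64, 3.62 and 3.66 in sh-TRAF2. The sh-TRAF2 samples were nearly alike and all lay above sh-NC. This gave a log2 fold change of 0.63 (standard error 0.078, 95% interval 0.45 to 0.80, adjusted p = 3.86e-04 from limma), a 1.54-fold difference resting on 898 to 1457 reads per sample. LIFR-AS1, an antisense gene that covers 5.3% of the exonic bases of LIFR, lay between 0.069 and 0.174 FPKM in all samples.

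OSMR, the oncostatin M receptor chain, spans chr5:38845858-38945596 (plus strand). Its FPKM was 16.99, 15.9 and 18.4 in sh-NC and 19.5, 19.1 and 19.4 in sh-TRAF2. The groups were separated, by a margin smaller than the spread within sh-NC. Its log2 fold change was 0.18 (standard error 0.057, 95% interval 0.05 to 0.31, adjusted p = 0.0337 from limma). This call is the weakest of the 5, since without sh-NC replicate 1 or 2, or without any single sh-TRAF2 sample, the adjusted p from limma was between 0.0696 and 0.0862. OSMR overlaps RICTOR on the other strand over 3.19% of its exonic bases, and RICTOR lay between 7.32 and 8.38 FPKM.

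IL6ST, the shared signalling chain, and IL6R, the IL-6-binding chain, did not pass the test. IL6ST (chr5:55935095-55994993, minus strand) had 108, 112 and 114 FPKM in sh-NC and 108, 96.2 and 101 in sh-TRAF2. Its highest sh-TRAF2 sample lay between the sh-NC samples. Its log2 fold change was -0.13 (95% interval -0.24 to -0.02, adjusted p = 0.0551 from limma), and without sh-TRAF2 replicate 1 it was -0.17 with an adjusted p of 0.0163 from limma. IL6R (chr1:154405193-154469450, plus strand) had 1.75, 2.31 and 1.68 FPKM in sh-NC and 2.72, 2.31 and 2.37 in sh-TRAF2. The groups were separated only by the margin between 2.306 in sh-NC replicate 2 and 2.312 in sh-TRAF2 replicate 2. This gave a log2 fold change of 0.36 (95% interval 0.06 to 0.66, adjusted p = 0.051 from limma), and without sh-NC replicate 2 it was 0.50 with an adjusted p of 0.00816 from limma.

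Chains for the other ligands were nearly missing from these libraries. IL11RA, without which IL-11 cannot engage gp130 on the same cell, had 7, 1 and 1 reads in sh-NC and 13, 8 and 2 in sh-TRAF2, or 0.217 FPKM at most. IL11 itself reached 36.2 FPKM in the same cells. CNTFR, the CNTF-binding chain, had 1 read in sh-NC replicate 1 and 1 in sh-TRAF2 replicate 1, and IL27RA had 20 to 37 reads per sample. All of these lay under the limit for testing. They were singled out after their values were seen.

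Ratios within a sample compare members without regard to the scale of the sample. OSMR exceeded LIFR 7.64-, 7.15- and 7.27-fold in the sh-NC samples and 5.36-, 5.28- and 5.29-fold in the sh-TRAF2 samples. The ratio was lower in each sh-TRAF2 sample, by 0.47 on the log2 scale. LIF exceeded IL6 3.23-, 3.44- and 3.12-fold in sh-NC and 2.24-, 2.48- and 2.33-fold in sh-TRAF2, lower by 0.48 on the log2 scale. IL6R stood at 0.0162, 0.0205 and 0.0148 of IL6ST in sh-NC and at 0.0251, 0.0240 and 0.0234 in sh-TRAF2, higher by 0.51 on the log2 scale. None of the 3 ratios overlapped between groups (two-sided exact permutation tests, n = 3 per group, p = 0.1 each, the smallest possible, and 0.1 after Benjamini-Hochberg adjustment over the 3 ratios). Each ratio holds a member whose own groups did not overlap (LIFR, IL6 or IL6R), as for 55.5% of single tested genes. The size of a ratio depends on the lengths used, but its log2 difference between groups does not.

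Inside the cell, STAT3 rose and SOCS3 fell. STAT3, the transcription factor that the family activates, spans chr17:42313324-42388568 (minus strand). Its FPKM was 31.1, 29.7 and 30.4 in sh-NC and 34.8, 37.2 and 37.8 in sh-TRAF2. The groups were well separated, and the log2 fold change was 0.27 (standard error 0.044, 95% interval 0.17 to 0.37, adjusted p = 0.00173 from limma). This is the level of its messenger RNA, and phosphorylation of the protein, on which its activity depends, was not measured.

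SOCS3, the feedback inhibitor of gp130, spans chr17:78356778-78360077 (minus strand). Its FPKM was 21.4, 26.7 and 19.8 in sh-NC and 16.98, 17.2 and 15.1 in sh-TRAF2. The sh-TRAF2 samples all lay under the lowest control, and sh-NC replicate 2 stood above the other controls. The log2 fold change was -0.45 (standard error 0.10, 95% interval -0.69 to -0.21, adjusted p = 0.00876 from limma), or 0.731-fold. Without sh-NC replicate 2 it was -0.33 with an adjusted p of 0.00853 from limma. In each sh-TRAF2 sample the ratio of STAT3 to SOCS3 was thus higher than in any sh-NC sample. Whether STAT3 lay above SOCS3 at all depends on the length used for STAT3.

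**Figure D3:**
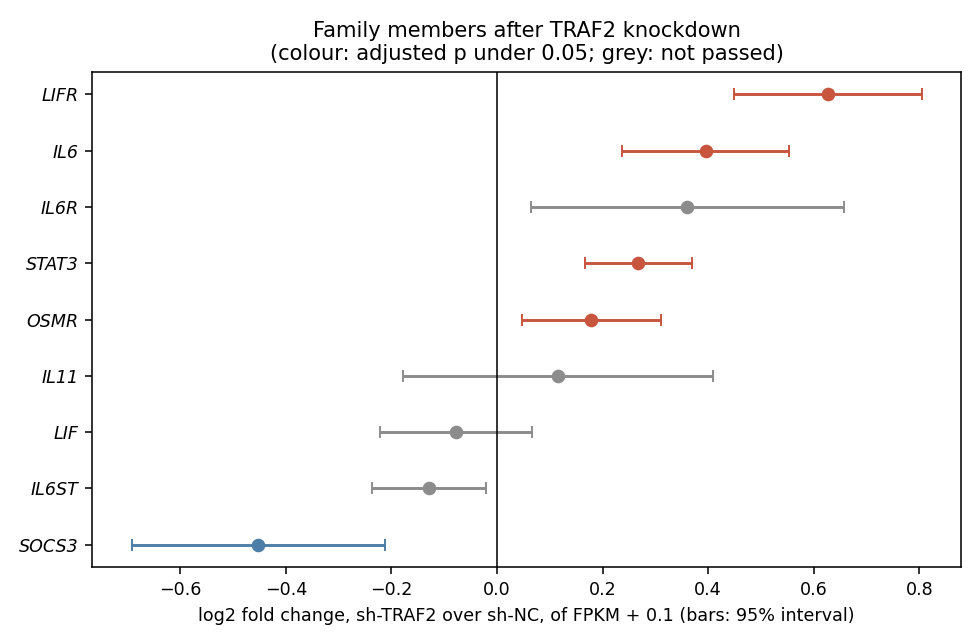
Log2 fold change of FPKM + 0.1, sh-TRAF2 over sh-NC, for the 9 members with 95% intervals from limma. Red marks the 4 members called higher, from 0.18 for OSMR to 0.63 for LIFR, blue marks SOCS3 at -0.45, and grey marks the 4 not called.

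The promoters of the members were searched for 3 motifs on both strands, since IL6, LIFR, OSMR and STAT3 all rose and these motifs belong to STAT3, AP-1 and NF-kappaB. RefSeq promoter windows (GRCh38.p14, 250 bases before to 50 after a start) were found for 8 of the 9 members, 11 windows in all, and LIF had none in the table used. The NF-kappaB motif (GGG, any 2 bases, then TTTCC) lay in the window of IL6, at -73 from the start, and in 1.91% of all 35116 windows. The AP-1 motif TGANTCA lay in those of IL11, IL6R and OSMR and in 7.71% of all windows. The STAT motif TTCNNNGAA lay in 2 of the 3 LIFR windows and in 7.66% of all windows. Neither IL6ST nor STAT3 nor SOCS3 held a match in the windows searched. Of the 8 members found, only IL11 had the same start in RefSeq as the gene start in GENCODE, and the starts of IL6, LIFR and SOCS3 were among those that differed. No window of IL6, LIFR or SOCS3 held the GENCODE gene start, so the sequence just before that start was not searched. Which start these cells use was not measured, and a match is a stretch of letters, not a measured binding site. The stretches that hold the matches of IL6, IL11, LIFR and OSMR are shown with the motif in capitals, 5′ to 3′ on the strand of the gene. They lie at chr7:22727100-22727199 (plus) for IL6, chr19:55370464-55370563 (minus) for IL11, chr5:38595517-38595616 and chr5:38557596-38557695 (minus) for LIFR, and chr5:38846003-38846032 (plus) for OSMR.
IL6, NF-kappaB: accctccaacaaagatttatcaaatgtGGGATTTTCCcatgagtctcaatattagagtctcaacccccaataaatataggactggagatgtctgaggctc
IL11, AP-1: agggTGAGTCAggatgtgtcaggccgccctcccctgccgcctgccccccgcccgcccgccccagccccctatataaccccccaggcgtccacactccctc
LIFR first start, STAT: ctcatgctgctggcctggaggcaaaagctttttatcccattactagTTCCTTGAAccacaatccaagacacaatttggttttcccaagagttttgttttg
LIFR second start, STAT: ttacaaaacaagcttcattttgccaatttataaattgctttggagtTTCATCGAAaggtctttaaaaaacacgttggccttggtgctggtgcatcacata
OSMR, AP-1: ttgccccgcagcTGATTCAtagccccggcc

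Matches thus occurred both in members that rose (IL6, LIFR, OSMR) and in IL11 and IL6R, which did not pass the test.

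A second search covered the 3′ untranslated regions, where the messages of cytokines are marked for decay. The AU-rich heptamer TATTTAT is bound by the ZFP36 family of decay factors, and in the longest 3′ region of each gene in GENCODE release 29 it occurred in 36.9% of 10607 tested genes. IL6 held 3 matches in 429 bases, where 13.0% of the 958 genes with a region of similar length held any. LIF held 5 in 3204 bases, IL11 held 7 in 1618 and SOCS3 held 2 in 1640, with overlapping matches counted. OSMR held 3, IL6ST and LIFR 1 each, and IL6R and STAT3 none. The first match of each of the ligands is shown in capitals within 29 bases.
IL6: tatgtaagtcaTATTTATatttttaagaa
LIF: ggcatgatttcTATTTATtatgatatcct
IL11: aagccagatctTATTTATttatttatttc

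The element thus occurred in 7 of the 9 members, among them members that rose (IL6, LIFR, OSMR), one that fell (SOCS3) and others that did not pass the test (LIF, IL11, IL6ST). Among genes with a region of similar length a match occurred in 81.6% for IL6ST, 78.7% for LIFR, 58.6% for LIF and 46.5% for OSMR. The share was 37.1% for IL11 and 37.2% for SOCS3, near the 36.9% of all tested genes. For IL6R and STAT3, which held no match, it was 65.7% and 49.6%.

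The heptamer ATTCCAC was searched as well, since it is bases 10 to 16 of the target of hairpin sh-TRAF2#1, of 21 bases, and its carriers were found lower in an earlier analysis of these same samples. It occurred in the 3′ region of 17.8% of the genes called lower, 6.02% of those called higher and 9.84% of the rest. These shares come from the same samples as that earlier analysis and are not independent of it. The heptamer TATTTAT was also commoner in genes called lower (40.4%) than in those called higher (33.5%) or the rest (37.1%). The length of the regions was not allowed for. Among the 9 members SOCS3 and LIF carried ATTCCAC, 1 match each, and the other 7 did not, where 10.7% of tested genes carried it. Among genes with a region of similar length the share was 9.89% for SOCS3 and 17.2% for LIF. It was 36.1% for IL6ST and 33.7% for LIFR, which held no match. SOCS3 was the member called lower, with a match at base 1464 of 1640, and the log2 fold change of LIF was -0.08, with a match at base 2337 of 3204. Which hairpin was sequenced is not given, and the target of sh-TRAF2#2 does not hold the heptamer. The part of a hairpin match in the fall of SOCS3 was not tested. The matches are in capitals.
SOCS3: cttttataaagATTCCACctccagtcctc
LIF: cagagttgctgATTCCACccggggggccc

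Outside the members, 4 lists of pathway genes held 54 tested genes, of which 12 rose and 12 fell, against 23.7% and 20.9% of all tested genes, so their calls stand near the background. The heptamer ATTCCAC occurred in 4 of the 12 that fell (ADAM10, JAK1, PIAS1 and ZFP36L1), in 1 of the 12 that rose (GFAP) and in 2 of the 30 others (ZFP36L2 and RC3H1). It was missing from all the others that fell: ADAM17, CCL2, RC3H2, HNRNPD, STAT5B, GRB2, MYC and CEBPB. The length of the regions, such as 8740 bases for ADAM10 and 6011 for PIAS1, was not allowed for. Its part in these values was not tested.

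The first list held 12 further ligands, receptors and sheddases, of which 11 were in the table and 4 could be tested. Of these, 2 fell and none rose, where 20.9% of all tested genes fell and 23.7% rose. The 2 that fell were ADAM17 and ADAM10, membrane proteases that release the IL-6 receptor and other proteins from the cell surface. ADAM17 went from 31.3 ± 2.76 (SD, n = 3) to 23.8 ± 1.1 (SD, n = 3) FPKM, a log2 fold change of -0.39 (adjusted p = 0.00217 from limma). ADAM10 went from 6.2 ± 0.065 (SD, n = 3) to 5.22 ± 0.298 (SD, n = 3) FPKM, a log2 fold change of -0.25 (adjusted p = 0.0115 from limma). The soluble receptor was not measured.

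Of 22 kinases, STAT proteins and inhibitors of the pathway, 18 could be tested. 3 rose, 4 fell and 11 did not pass, where 23.7% of all tested genes rose and 20.9% fell. The median log2 fold change was -0.01 against 0.02 for all tested genes. PTPN11, the phosphatase that links gp130 to the ERK pathway, rose by 0.23 on the log2 scale (adjusted p = 0.00221 from limma). JAK1, the kinase that gp130 mainly uses, fell by 0.31 (adjusted p = 2.97e-04 from limma), from 57.0 ± 1.1 to 45.9 ± 1.15 FPKM (SD, n = 3). PIAS1, an inhibitor of STAT proteins, fell by 1.01 (adjusted p = 3.97e-05 from limma) and was the only gene of this list past an absolute log2 fold change of 1.

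Of 24 genes reported to respond to STAT3, 22 could be tested, and 8 rose, 3 fell and 11 did not pass. Of all tested genes 23.7% rose and 20.9% fell. The median log2 fold change of the list was -0.07. S1PR1, a sphingosine-1-phosphate receptor, rose by 1.33 on the log2 scale, from 24.2 ± 0.894 to 60.9 ± 1.81 FPKM (SD, n = 3, adjusted p = 8.61e-07 from limma). BIRC5, which encodes survivin and is also a cell-cycle gene, rose by 0.81 (adjusted p = 7.96e-06 from limma), and FOSL2, an AP-1 subunit, by 0.38 (adjusted p = 4.31e-04 from limma). CCL2, a monocyte-attracting chemokine, fell by 1.22, from 131 ± 5.13 to 56.6 ± 6.75 FPKM (SD, n = 3, adjusted p = 1.86e-05 from limma). GFAP was called higher at low levels (log2 fold change 1.11, adjusted p = 0.0382 from limma), but its groups overlapped, and without sh-NC replicate 1 or 2 or sh-TRAF2 replicate 2 or 3 the adjusted p was between 0.092 and 0.132. These genes also answer to other factors.

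All 10 listed regulators of the decay and stability of IL6 messenger RNA were tested, and 1 rose, 3 fell and 6 did not pass. Of all tested genes 23.7% rose and 20.9% fell. ZFP36L1, which binds AU-rich elements and promotes decay, fell by 0.93 on the log2 scale, from 93.3 ± 4.61 to 48.9 ± 2.58 FPKM (SD, n = 3, adjusted p = 8.18e-06 from limma). Its relatives ZFP36 and ZFP36L2 did not pass (log2 fold changes -0.14 and -0.06). RC3H2, or roquin-2, fell by 0.32 (adjusted p = 0.00104 from limma) and HNRNPD, which binds AU-rich elements, by 0.21 (adjusted p = 9.15e-04 from limma), while KHSRP, a decay factor, rose by 0.35 (adjusted p = 6.86e-05 from limma). Whether the level of ZFP36L1 bears on that of IL6 was not tested.

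**Figure D4:**
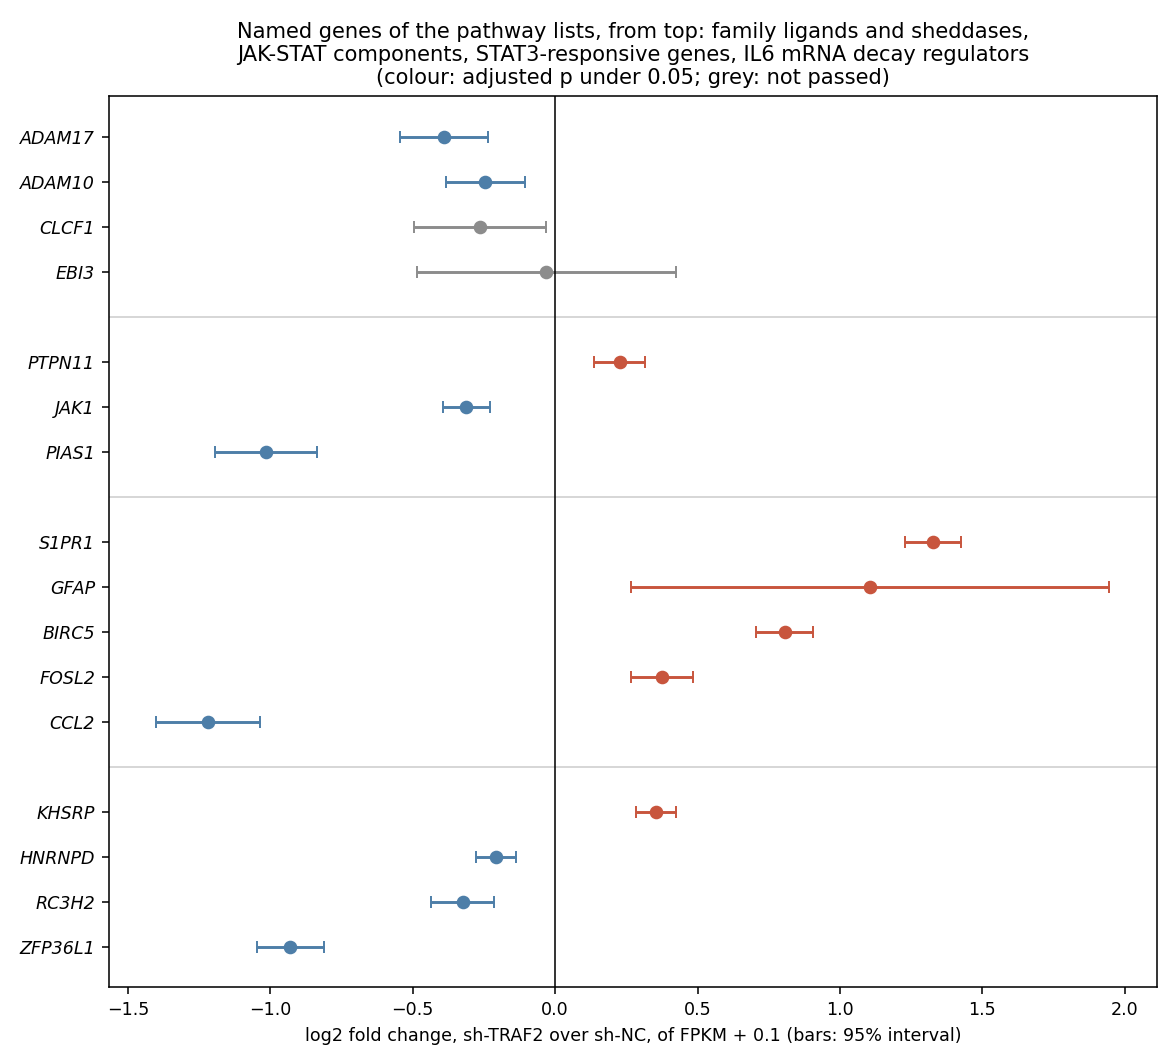
Log2 fold change of FPKM + 0.1, sh-TRAF2 over sh-NC, with 95% intervals from limma, for the genes described from the 4 pathway lists, separated by grey lines. Red genes were called higher and blue genes lower. S1PR1 (1.33) and CCL2 (-1.22) lie farthest out within 1 list, and the interval of GFAP is the widest.

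The genes whose pattern over the 6 samples lay nearest to that of LIFR, by Euclidean distance between gene-centred log2 values, were HNRNPDL, ZNF84, ADIPOR2, ARMCX3 and NUCB2, at distances from 0.074 to 0.098. Their log2 fold changes lay between 0.58 for ARMCX3 and 0.68 for ZNF84, a likeness that follows from choosing them by nearness to LIFR.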

How the data were processed

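Total RNA of U251 cells was extracted with TRIzol, and libraries were made with the VAHTS Universal V6 kit and sequenced by OE Biotech. The authors deposited 1 table of FPKM values, a column per sample. The submitters' processing notes name HISAT2, HTSeq, R 3.2.0 and DESeq2. The genome build, the annotation and the use of strand are not given in the sources used here. Columns were assigned by the library name in each label, and the labels NC and KD are called sh-NC and sh-TRAF2.

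Values were taken as log2(FPKM + 0.1), and the groups were fitted in limma 3.58.1 (R 4.3.3; lmFit, eBayes with a trend) over 11870 genes whose mean FPKM reached 0.5. The pseudocount shrinks the fold changes of low genes. Reads were recovered as the smallest whole numbers behind each gene's FPKM steps, to a tolerance of 1e-05 of a read, wider in proportion for very high counts. For 2643 genes with reads in 1 sample only they cannot be known. When the recovery was checked on simulated counts, 98.5% of 1793 genes came out exactly. The fit was tested on simulated data with 11870 genes: of 66 genes changed by 0.5 on the log2 scale 84.8% were called, of 68 changed by 1 all were, and 12 unchanged genes were called. In that simulation far fewer genes changed than the 44.6% called here, no gene with few reads was changed, and the spread was fixed. Its shares thus need not hold for the real samples.

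The members and lists were chosen with earlier results of these data known. Named are TRAF2, the members, in each list the 4 genes with the smallest adjusted p and any called past an absolute log2 fold change of 1, and the 5 genes nearest to LIFR. A gene that this rule selects is not reported here. Other genes named, and both heptamers, were chosen after values were seen. CTF1, CHI3L1 and CD3E were not analysed here. Alternatives were pseudocounts of 1 and 0.01, no filter, a minimum mean FPKM of 1, TPM rescaling, quantile normalization, a block for the replicate number, no trend, limma-voom on recovered reads (14130 genes averaging 10 reads or more) and each sample left out. Ratios without each sample, and members after subtracting the median of all genes, were added after seeing the data. Scripts ran in Python 3.11.15 with scipy 1.17.1, pandas 2.3.3, numpy 2.4.6 and matplotlib 3.10.9.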

Additional observations from a re-analysis of the deposited data

How the results depend on the processing

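The members were refitted under 15 alternatives, 135 comparisons in all. In 120 the call and direction held, in 7 a call was lost, in 8 one was gained, and in 0 the sign turned. All 9 also kept their sign after the median of all genes was subtracted. IL6, LIFR, STAT3 and SOCS3 passed in all 15 refits, and OSMR in 8. OSMR had an adjusted p of 0.0703 with no filter and 0.0622 without a trend. Members called higher ranged from 3 to 5. Members called lower were 2 after TPM rescaling, 2 after quantile normalization and 2 with limma-voom on recovered reads, where IL6ST joined SOCS3 (log2 fold changes -0.14, -0.20 and -0.13), and between 1 and 2 with each sample left out. IL6R passed with limma-voom (adjusted p = 0.0205) and with a mean FPKM of at least 1 (adjusted p = 0.0484). Of the named pathway genes EBI3, which was not called, turned sign, from -0.17 to 0.20 with each sample left out (0.20 without sh-NC replicate 2), and GFAP lost its call with no filter (adjusted p = 0.12) and with no trend (adjusted p = 0.0676). The cause was not tested. The ratios kept their direction with each sample left out, from -0.49 to -0.44 for OSMR to LIFR, -0.52 to -0.44 for LIF to IL6 and 0.41 to 0.64 for IL6R to IL6ST.

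Deviations of same-numbered samples from their group means had correlations of -0.081, 0.072 and 0.073 across genes. With 3 samples a group, such values cannot show whether the numbers pair the samples. With the replicate number as a block 4 members were called higher and 1 lower, and CLCF1 gained a call (adjusted p = 0.0334 from limma). In all, 2912 genes were then higher and 2539 lower, against 2818 and 2479 without the block. Groups of 3 are too small for a check of outlying samples, and 3 samples a group limit the precision of small changes such as those of OSMR and IL6ST.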
